A study of Mus musculus with 20 samples.

Results

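Ly6a, Cd34, Thy1, Procr and Cd248 encode surface proteins used to pick out mesenchymal progenitors, the cells of connective tissue that can give rise to bone, fat, cartilage and fibroblast lineages. They were taken by gene symbol from the authors' filtered table, where each had 1 probe set, so the set is 5 of 9129 genes, or 5 of 12440 probe sets. Levels were measured on expression arrays in cells that collagenase freed from the bones of untreated wild-type male C57BL6 mice aged 8 weeks. Every group was sorted as negative for blood lineage markers (Lin-) and for CD31, the endothelial adhesion molecule encoded by Pecam1, and positive for CD51, the integrin alpha-v chain. Within that gate, A was Sca-1- with PDGFRa and no PDGFRb, B was Sca-1- with PDGFRb and no PDGFRa, and AB was Sca-1- with both receptors. DN was Sca-1- without PDGFRa, and SL was Sca-1 low without PDGFRa. The sign of the PDGFRb gate of DN and SL cannot be read from the labels, and DN is taken as negative for both receptors from its code alone. Each group had 4 arrays. Whether the 4 are separate mice or sorts is not stated, so a p-value here measures the spread among arrays, which may be technical, and the number of arrays limits the precision.

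Mesenchymal progenitors are recognised by combinations of surface proteins, since none of these proteins is exclusive to them. Ly6a encodes Sca-1, a small protein held in the membrane by a lipid (GPI) anchor, which also marks blood stem cells, many T cells and some endothelium in mice. Thy1 encodes CD90, another GPI-anchored protein, found on fibroblasts, neurons and T cells. Cd34 encodes a sialomucin of blood stem cells, vessels and tissue fibroblasts. Cd248 encodes endosialin, a C-type lectin-like protein of fibroblasts and pericytes, and Procr encodes the receptor that presents protein C to thrombomodulin on endothelium. In bone, Sca-1 together with PDGFRa marks a perivascular progenitor, while Sca-1 is low or absent on osteoblasts.

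In the authors' comparison tables, whose genome build is not named, Ly6a lies on chromosome 15 from 74994877 to 74998031 on the minus strand. On the plus strand lie Cd34 on chromosome 1 (194938819 to 194961279), Thy1 on chromosome 9 (44043384 to 44048579), Procr on chromosome 2 (155751117 to 155755471) and Cd248 on chromosome 19 (5068078 to 5070637). The members are therefore on 5 different chromosomes, and each probe set is named for an Ensembl transcript of the gene. Promoter windows of 300 bases around the annotated start in RefSeq (GRCm38.p6) were matched for 2 of the 5 members, Cd34 and Procr. They are shown because no window was matched for the other members. B minus A kept its direction for Procr and not for Cd34, and a link of this to the windows was not tested. B minus A was 1.51 log2 units for Procr over all arrays, 1.33 in replicates 1 and 2 and 1.69 in replicates 3 and 4. For Cd34 it was -0.40 over all arrays (adjusted p = 0.706), -2.13 in replicates 1 and 2 and 1.34 in replicates 3 and 4. Capitals mark the GATAA match in the Cd34 window (chr1:194938571-194938870, plus strand) and the CAGCTG match to the E-box CANNTG in the Procr window (chr2:155750967-155751266, plus strand).
Cd34: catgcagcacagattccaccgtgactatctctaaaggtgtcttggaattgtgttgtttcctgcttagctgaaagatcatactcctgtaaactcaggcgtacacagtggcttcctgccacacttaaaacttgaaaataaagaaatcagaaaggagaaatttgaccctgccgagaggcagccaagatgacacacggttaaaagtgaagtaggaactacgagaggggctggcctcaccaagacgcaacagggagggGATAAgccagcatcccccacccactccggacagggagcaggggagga
Procr: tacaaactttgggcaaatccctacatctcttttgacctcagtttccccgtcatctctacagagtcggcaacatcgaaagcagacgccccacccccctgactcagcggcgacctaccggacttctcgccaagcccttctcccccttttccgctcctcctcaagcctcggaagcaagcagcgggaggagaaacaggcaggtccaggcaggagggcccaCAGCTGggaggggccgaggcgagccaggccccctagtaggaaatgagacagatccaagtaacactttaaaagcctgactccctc

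The Cd34 window had a GC content of 50.0%, the Procr window of 58.3%, and the median over 32851 promoter windows was 52.7%. GATAA, searched on both strands, was found at position 4 after the start of Cd34 and not in the Procr window, and 25.4% of all windows held it. CANNTG was found 34 bases before the RefSeq start of Procr and not in the Cd34 window, and 72.3% of all windows held it. The authors' coordinates place the start of Procr further upstream, at 155751117. If their build is the same, the match lies after that start. GGAA, the core shared by ETS factor motifs, was found 5 times in the Cd34 window and 4 times in that of Procr, which sets neither apart since 96% of windows held at least 1. Neither window held the TATA box TATAAA, found in 13.6% of windows on either strand. The CCAAT box, found in 37.4%, was also in neither. The GC box GGGCGG, found in 35.7%, was in neither as well. These matches describe letters in the windows and are no evidence of binding.

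Replicates 3 and 4 of B and, less far, of AB stood apart from replicates 1 and 2 of the same group. In B the log2 signal of Ly6a, whose protein the gate excluded, was 7.01 and 7.10 in replicates 1 and 2 but 10.18 and 10.90 in replicates 3 and 4. In AB it was 7.09, 7.24, 8.72 and 10.05 in the same order. B replicate 4 therefore lay above every SL array, and 1 of 4 B arrays and 0 of 4 AB arrays reached the lowest SL array. The residual SD of Ly6a around its group means was larger than that of 99.934% of genes, that of Cd34 larger than 99.912%, that of Cd248 larger than 98.686% and that of Procr larger than 97.809%. Thy1, at 75.463%, did not share this spread. Differences that rest on B and AB are therefore given from all arrays and, for each member, with B and AB represented by replicates 1 and 2 alone. The arrays left out were picked by their Ly6a signal. For Ly6a, and for Cd34, Procr and Cd248, which vary with it within groups, the second values are a description with no test. For these members, adjusted p-values from fits that left out AB replicate 4 or a B array alone are likewise descriptions.

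Transcripts of other sorted proteins and markers of other cell types differed between the same arrays. Pdgfra in B was 8.63 and 8.76 in replicates 1 and 2 and 9.19 and 9.54 in replicates 3 and 4, against 8.95 to 9.15 in A, while SL, gated as PDGFRa-, had the highest Pdgfra signal at 10.10 to 10.34. The mean of 17 measured of 18 adventitial fibroblast progenitor genes was 8.49, 8.38, 9.64 and 10.08 in B replicates 1 to 4, against 9.95 to 10.26 in SL. The mean of 8 measured of 9 pericyte and smooth muscle genes ran the other way in B, at 9.99 and 10.06 in replicates 1 and 2, with replicates 3 and 4 lower, down to 8.86. Among blood lineages, the mean of 14 measured of 16 neutrophil genes was 9.98, 9.67, 10.46 and 10.77, that of 4 measured of 10 monocyte and macrophage genes 8.70, 8.36, 8.90 and 9.43, and Ptprc, the pan-leukocyte antigen CD45, 8.86, 7.73, 8.49 and 9.43. The mean of 4 measured of 9 erythroid genes was 8.64, 8.12, 8.49 and 9.26 in B. In B minus DN 12 of the 14 neutrophil genes, 3 of the 4 monocyte and macrophage genes and 3 of the 4 erythroid genes were called higher. Of all genes 24.4% were called higher in B minus DN and 45.7% in either direction. AB replicate 4 was likewise above AB replicates 1 to 3, with a neutrophil mean of 10.42 against 9.13 to 9.45, a monocyte and macrophage mean of 9.24 against 7.66 to 8.01, an erythroid mean of 8.93 against 7.34 to 8.02 and Ptprc of 8.79 against 6.70 to 7.48. Replicate 4 was the highest array in DN, A and SL too, with neutrophil means of 9.79, 10.07 and 9.73. The same held there for monocyte and macrophage means (8.77, 8.84 and 8.27), erythroid means (8.06, 8.37 and 7.81) and Ptprc (8.48, 8.19 and 8.00). Of cell types that carry Sca-1 themselves, the endothelial list had 4 of 15 genes measured and was 7.25, 7.35, 8.02 and 8.10 in B, with Pecam1 between 5.90 and 7.57 over all 20 arrays. The blood stem and progenitor list, 4 of 12 genes measured, was 7.05, 7.01, 7.15 and 7.27 in B, and 0 of 14 T and NK cell genes were among the genes analysed. In SL the endothelial list was 7.84 to 8.49 and the blood stem and progenitor list 7.51 to 7.68. In DN they were 6.88 to 7.61 and 6.59 to 6.81. In SL minus DN 1 of 4 endothelial genes (Tek) and 4 of 4 blood stem and progenitor genes were called higher. Of all genes 23.9% were called higher there and 21.3% lower. The mean of 10 measured of 11 chondrocyte genes was 11.43 to 11.81 in DN and 11.11 to 11.44 in A. It was 8.01 to 9.09 in AB, 8.88 to 9.23 in SL and 8.60, 8.98, 9.94 and 9.89 in B replicates 1 to 4. The mean of 6 Schwann cell genes was 8.30 to 8.73 in DN and 7.96 to 8.38 in A. It was 5.78 to 6.55 in AB, 6.471 to 7.345 in B and 5.47 to 6.07 in SL. In SL minus DN 9 of 10 chondrocyte and 6 of 6 Schwann cell genes were called lower and 0 higher. The mean of 10 measured of 13 osteoblast genes was 9.40 to 9.64 in DN and 8.73 to 8.98 in SL. Of these 10 genes 5 were called lower and 1 higher. The mean of 8 measured of 9 marrow stromal reticular genes was highest in AB, at 9.45 to 10.26. It was 6.44 to 6.76 in DN and 7.15 to 7.67 in SL. The part of any of these cells in the members' values was not tested. In bulk samples such as these, fewer cells of a type and less RNA per cell cannot be told apart.

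**Figure D1:**
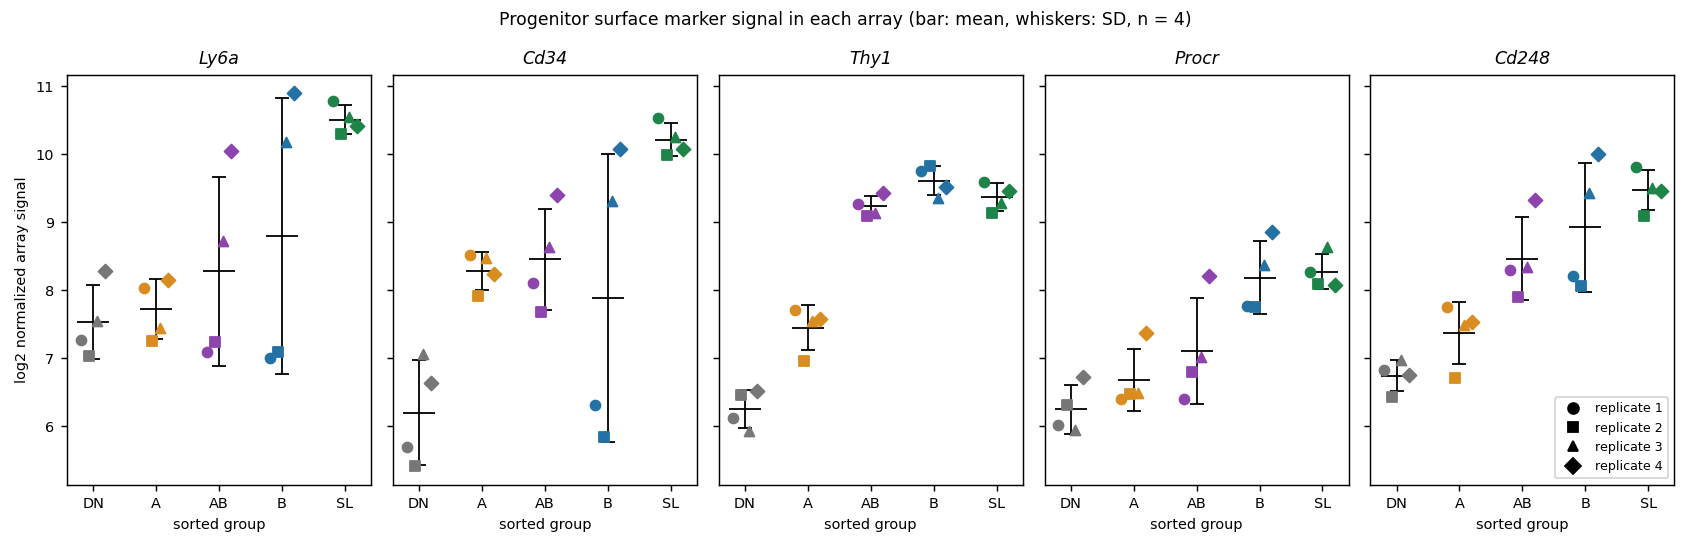
Log2 signal of each member (vertical axis) in each of the 20 arrays, by sorted group (horizontal axis). Point shapes give the replicate, and bars and whiskers the group mean and SD (n = 4). Ly6a, Cd34 and Cd248 split replicates 1 and 2 of B from replicates 3 and 4, while the 4 B arrays of Thy1 lie together between 9.36 and 9.82.

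Ly6a was high in SL and low in DN and A in every array. Its signal was 10.78, 10.30, 10.54 and 10.42 in SL replicates 1 to 4, against 7.27, 7.03, 7.54 and 8.28 in DN and 8.03, 7.25, 7.45 and 8.15 in A. No DN or A array came near the SL arrays. Ly6a exceeded DN in SL by 2.98 ± 0.72 log2 units (SE, n = 4 per group, limma adjusted p = 0.00206) and A by 2.79 ± 0.72 (adjusted p = 0.00536). Because Sca-1 itself was sorted, these differences check the gate at the transcript level and are no finding about the cells. Against AB, with 2.23 ± 0.72 (adjusted p = 0.0575), and against B, with 1.71 ± 0.72 (adjusted p = 0.148), SL did not pass the test over all arrays. Leaving out AB replicate 4 or any B array brought SL minus AB past the threshold (adjusted p = 0.0132 to 0.0490), as leaving out B replicate 4 did SL minus B (0.0213). Among the 4 Sca-1- groups the order of means was DN 7.53 ± 0.54 (SD, n = 4), A 7.72 ± 0.44, AB 8.28 ± 1.39 and B 8.80 ± 2.04. With B and AB from replicates 1 and 2, SL minus AB was 3.34, SL minus B 3.46, AB minus DN -0.36 and B minus DN -0.48. Over all arrays B minus DN, at 1.27 ± 0.72 (adjusted p = 0.160), passed the test without B replicate 1 (0.0423) or B replicate 2 (0.0462). No neighbours in that order differed beyond their spread, and in replicates 1 and 2 of B and AB the signal lay between 7.01 and 7.24, below 3 of the 4 DN arrays.

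Thy1 was high in both groups gated PDGFRb+ and in SL, intermediate in A and low in DN. Its signal was 6.12, 6.46, 5.93 and 6.51 in DN and 7.71, 6.96, 7.55 and 7.58 in A. AB had 9.27, 9.09, 9.14 and 9.43, B had 9.75, 9.82, 9.36 and 9.52, and SL had 9.60, 9.14, 9.29 and 9.47. DN, A and the other groups formed 3 levels whose arrays did not overlap, and AB, B and SL shared the highest. The distance above DN was 3.12 ± 0.16 for SL (adjusted p = 2.15e-11), 3.36 ± 0.16 for B (adjusted p = 5.65e-11), 2.98 ± 0.16 for AB (adjusted p = 3.7e-11) and 1.19 ± 0.16 for A (adjusted p = 0.000233). The distance above A was 1.92 for SL, 2.16 for B and 1.78 for AB, and the largest of these adjusted p-values was 5.85e-08. The 3 high groups were not separated by the test. SL minus AB was 0.14 (95% interval -0.20 to 0.48, adjusted p = 0.754), SL minus B was -0.24 (-0.58 to 0.10, adjusted p = 0.458) and AB minus B was -0.38 ± 0.16 (adjusted p = 0.422). With B and AB from replicates 1 and 2, AB stood 2.92 above DN and 1.73 above A, and B stood 3.53 above DN and 2.34 above A, all called. SL minus AB was then 0.19, SL minus B -0.41 and AB minus B -0.61, none called. A minus DN lost its call with replicates 1 and 2 of every group (1.04, adjusted p = 0.0650), where fewer arrays entered the fit.

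The difference that goes with PDGFRa depended, for Thy1, on the PDGFRb gate, with DN read as negative for PDGFRb from its code alone. On that reading the PDGFRa+ cells were 1.19 higher without PDGFRb (A minus DN). With PDGFRb the value was -0.38 (AB minus B), which did not pass the test. The difference of these differences was -1.57 ± 0.23 (adjusted p = 0.00191), a test that 0.668% of all genes passed, 0.438% in this direction, and that 1 of the 5 members passed. For the other 4 members it lay between -1.52 for Cd34 and -0.71 for Ly6a, with adjusted p-values from 0.153 for Procr to 0.869 for Ly6a. With the replicate number as a block, 3.94% of genes were called and 2 of the 5 members passed. Procr was added there at -1.51 ± 0.32 (adjusted p = 0.0120). Residuals of arrays with the same number correlated above 0.1 for all 4 numbers only in AB with A and AB with B. In the other pairs r was less even, from -0.05 (A with DN) to 0.45 (B with DN). Without AB replicate 4, the AB array highest in Procr and in Ly6a, the Procr value was -1.88 (adjusted p = 0.0225), a description with no test. The Thy1 value was similar in replicates 1 and 2 alone, at -1.65 (adjusted p = 0.0503), and in replicates 3 and 4 alone, at -1.49 (adjusted p = 0.299), where fewer arrays entered the fit and neither passed the test. The Pdgfra transcript was 1.14 higher in A than in DN and 0.70 higher in AB than in B. Its B minus A was 0.02 (limma adjusted p = 0.948), though B was gated PDGFRa-. The Pdgfrb transcript was 0.49 ± 0.12 higher in A than in DN (limma adjusted p = 0.0244), though A was gated PDGFRb-. A minus DN is therefore no comparison at equal Pdgfrb signal. For Pdgfrb, SL minus DN was 1.43 ± 0.12 (adjusted p = 8.82e-09) and AB minus B 0.06 (adjusted p = 0.984). SL minus AB was -0.41 (adjusted p = 0.0321) and SL minus B -0.36 (adjusted p = 0.0566).

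Cd34 was highest in SL and lowest in DN. SL had 10.54, 9.99, 10.26 and 10.07, and DN had 5.70, 5.42, 7.06 and 6.64. Between them, A had 8.51, 7.92, 8.48 and 8.24, AB had 8.11, 7.68, 8.63 and 9.40, and B had 6.32, 5.84, 9.31 and 10.08. No A or AB array reached an SL array or fell to a DN array. B held both extremes, with replicates 1 and 2 within the DN range and replicate 4 among the SL arrays. SL exceeded DN by 4.01 ± 0.67 (adjusted p = 6.41e-05), A by 1.93 ± 0.67 (adjusted p = 0.0333) and B by 2.33 ± 0.67 (adjusted p = 0.0258). The difference from A lost its call when 1 of 7 arrays was left out, with adjusted p-values of 0.0509 to 0.0794 (each SL array and A replicates 1, 2 and 4). The difference from B lost it without B replicate 1 or 2 or SL replicate 1 or 3 (adjusted p = 0.0595 to 0.112). SL minus AB was 1.76 (adjusted p = 0.125) and passed without B replicate 4 (0.0481).

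Among the Sca-1- groups Cd34 had the order DN 6.20 ± 0.77, B 7.89 ± 2.12, A 8.29 ± 0.28 and AB 8.45 ± 0.74. AB exceeded DN by 2.25 ± 0.67 (adjusted p = 0.00939). A exceeded DN by 2.09 ± 0.67 with no overlap of arrays, yet the adjusted p was 0.10 in the fit of all 20 arrays, whose spread for Cd34 includes the divided B group. Without B replicate 2 or 4 it was 0.0498 or 0.0390. In a fit of A and DN alone, where 1.83% of genes were called, it was 0.00892, and the authors' deposited table lists Cd34 for DN minus A at -2.08 with a q-value of 0.00676. B minus DN, at 1.69 ± 0.67 (adjusted p = 0.0467), passed over all arrays, lost its call without 1 of 15 arrays (all but AB replicates 2 and 4, B replicates 1 and 2 and DN replicate 3, adjusted p = 0.0529 to 0.199) and was -0.12 ± 0.35 with B and AB from replicates 1 and 2. In that setting AB minus DN was 1.69 ± 0.35, B minus A -2.21 ± 0.35, AB minus B 1.81 ± 0.40, SL minus AB 2.32 ± 0.35 and SL minus B 4.13 ± 0.35. With replicates 3 and 4 of every group B minus A was 1.34 ± 0.30, the opposite direction, and over all arrays it was not called. The place of B among the groups thus differed between its arrays for Cd34.

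Cd248 was low in DN and A and higher in AB, B and SL. DN had 6.83, 6.42, 6.97 and 6.75, and A had 7.75, 6.71, 7.49 and 7.53. AB had 8.29, 7.89, 8.34 and 9.33, B had 8.20, 8.06, 9.44 and 10.00, and SL had 9.82, 9.10, 9.51 and 9.46. Every AB, B and SL array lay above every A and DN array, and AB and B overlapped SL only through AB replicate 4 and B replicates 3 and 4. SL exceeded DN by 2.73 ± 0.36 (adjusted p = 3.5e-06) and A by 2.10 ± 0.36 (adjusted p = 0.000131). AB exceeded DN by 1.72 (adjusted p = 0.000544) and A by 1.09 (adjusted p = 0.0238), and B exceeded DN by 2.18 (adjusted p = 5.04e-05) and A by 1.56 (adjusted p = 0.00239). The call of AB against A was lost without AB replicate 4 (0.80, adjusted p = 0.0946) or without A replicate 2 (0.87, adjusted p = 0.0913). The neighbours A and DN (0.63, adjusted p = 0.419), B and AB (AB minus B -0.46, adjusted p = 0.833) and SL and B (0.55, adjusted p = 0.434) were not separated by the test. SL minus AB was 1.01 (adjusted p = 0.0910), and it passed without AB replicate 4 (0.0235) or B replicate 4 (0.0411). With B and AB from replicates 1 and 2, SL minus AB was 1.38 ± 0.25, SL minus B 1.34 ± 0.25, AB minus DN 1.35, B minus DN 1.39, AB minus A 0.72, B minus A 0.76 and AB minus B -0.04. With replicates 1 and 2 of every group, B minus A was 0.90 (adjusted p = 0.0799) and AB minus A 0.86 (adjusted p = 0.0924), neither called. Fewer arrays entered that fit and they were chosen knowing their Ly6a, so these values are a description.

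Procr was high in B and SL. Its signal was 7.77, 7.76, 8.37 and 8.86 in B and 8.27, 8.10, 8.63 and 8.08 in SL. It was 6.01, 6.31, 5.94 and 6.73 in DN, 6.40, 6.47, 6.48 and 7.36 in A and 6.40, 6.80, 7.02 and 8.21 in AB. B and SL arrays lay above every DN and A array, and AB, with a mean of 7.11 ± 0.78, overlapped all other groups. SL exceeded DN by 2.02 ± 0.32 (adjusted p = 3.59e-05), A by 1.59 ± 0.32 (adjusted p = 0.000719) and AB by 1.16 ± 0.32 (adjusted p = 0.0252). B exceeded DN by 1.94 ± 0.32 (adjusted p = 5.63e-05) and A by 1.51 ± 0.32 (adjusted p = 0.00123). SL minus B was 0.08 with a 95% interval from -0.59 to 0.76 (adjusted p = 0.940).

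Unlike Thy1 and Cd248, Procr was not called higher in AB than in A (0.43, adjusted p = 0.337). The authors' comparison tables do not list Procr for A minus AB or DN minus A, where they list the other members. The reason is not stated. The linear signal of Procr was 61.6 to 106 in DN and 84.5 to 165 in A. AB minus B was -1.08 ± 0.32 (adjusted p = 0.140) without the replicate number in the model and -1.08 ± 0.23 (adjusted p = 0.0112) with it as a block, where 3.52% of genes were called. The block bears on this pair because arrays of the same number deviated together in AB and B. Without AB replicate 4, the AB array highest in Procr and in Ly6a, the difference was -1.45 (adjusted p = 0.00668). That value is a description with no test. AB exceeded DN by 0.86 ± 0.32 (adjusted p = 0.0340), and it lost its call without AB replicate 3 or 4 or DN replicate 1, 2 or 3 (adjusted p = 0.0504 to 0.158). SL minus AB lost its call when any of AB replicates 1, 2 and 3 or SL replicates 1 and 3 was left out, with adjusted p-values of 0.0541 to 0.112. With B and AB from replicates 1 and 2, AB minus DN was 0.36, B minus DN 1.51, B minus A 1.08, SL minus AB 1.67, SL minus B 0.51 and AB minus B -1.16.

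**Figure D2:**
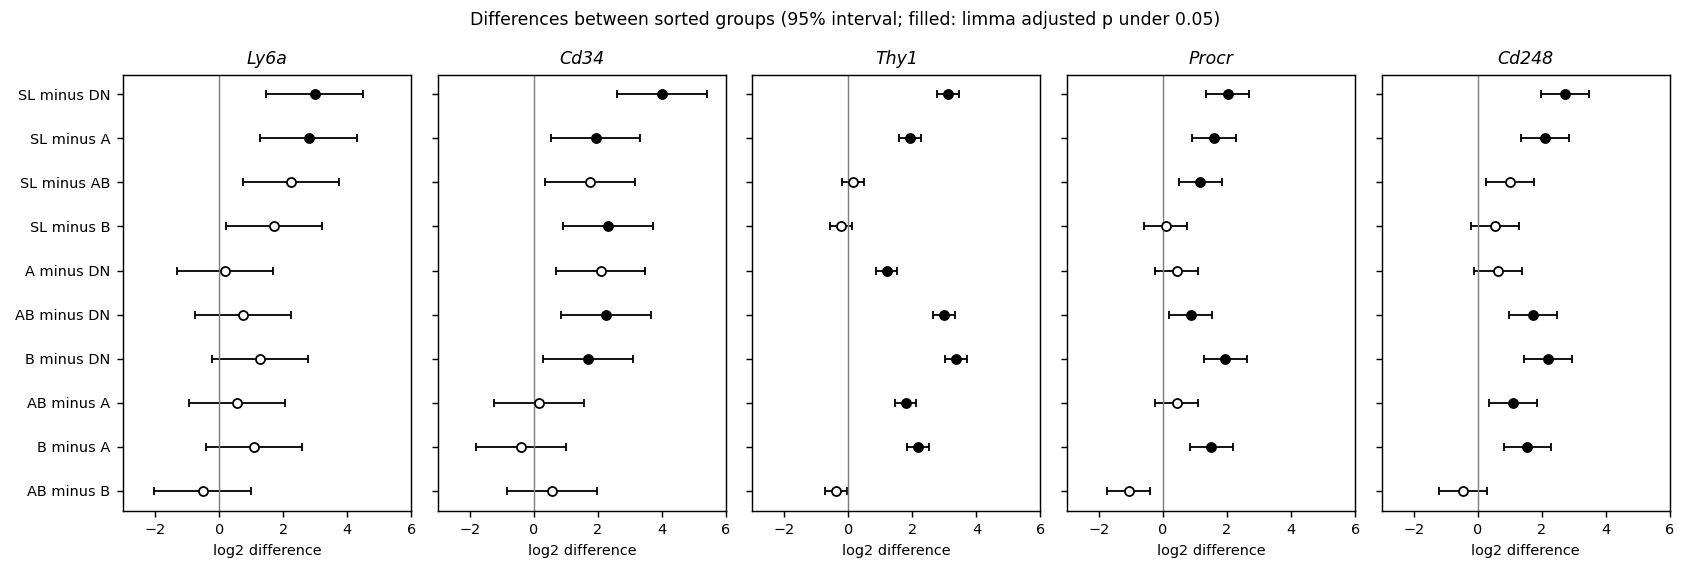
Log2 difference of each member in each pair of groups (points) with its 95% interval (bars), from the model of all 20 arrays, with filled points for an adjusted p under 0.05. Intervals of Ly6a and Cd34 are the widest and those of Thy1 the narrowest, and all 5 members lie above 0 in SL minus DN and in SL minus A.

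Read over the members, SL stood above DN and above A for all 5, where 23.9% and 16.8% of all genes were called higher (45.2% and 32.6% in either direction). Arrays of the paired groups did not overlap for any member in these pairs, which was so in the higher direction for 21.2% and 17.4% of genes. Ly6a enters these counts only as a check of the gate, since Sca-1 itself was sorted. Cd34, Thy1, Procr and Cd248 are the members that bear on the cells here. Against DN, Cd34, Thy1, Procr and Cd248 were called higher in AB, where 24.7% of all genes were called higher and 46.1% in either direction. These 4 members were called in B too, where 24.4% were called higher and 45.7% in either direction. In A, Thy1 was the only member called, where 2.89% were called higher and 3.53% in either direction. Against A, Thy1 and Cd248 were called higher in AB (17.7% of genes higher, 32.9% in either direction) and Thy1, Procr and Cd248 in B (15.1% and 29.7%). Arrays did not overlap for Cd34, Thy1 and Cd248 in AB against DN (20.9% of genes in that direction), for Thy1, Procr and Cd248 in B against DN (18.5%), for Cd34 and Thy1 in A against DN (5.17%), for Thy1 and Cd248 in AB against A (17.1%) and for Thy1, Procr and Cd248 in B against A (14%). SL exceeded AB for Procr, where 4.43% of genes were called higher and 9.34% in either direction, and B for Cd34, where 5.61% and 12.5% were. Over all arrays 0 members were called by limma between AB and B, where 1.52% of genes were called, 1.12% higher in AB, and the unadjusted p was under 0.05 for 2 of the 5, Thy1 and Procr, and for 9.91% of genes. These pairs share groups, so the counts are not independent of each other.

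**Figure D3:**
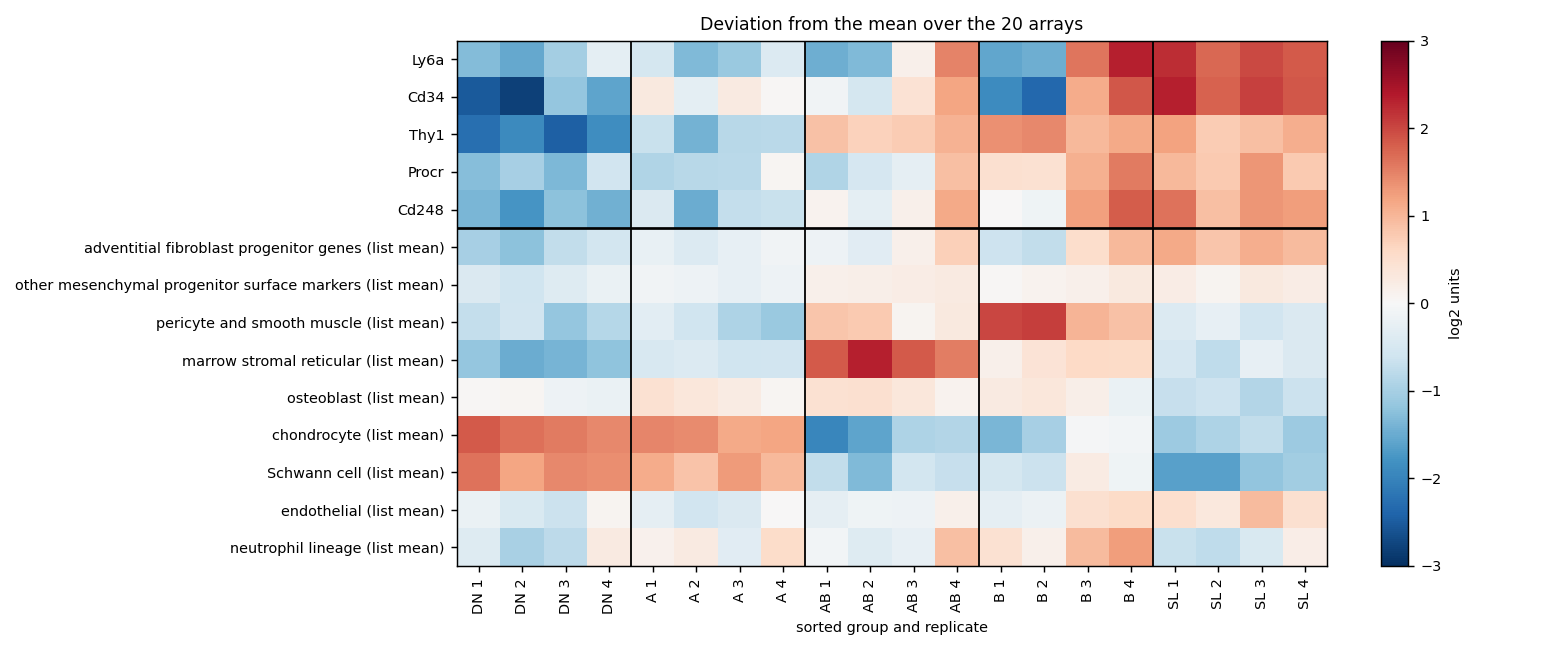
Log2 signal of the members in the 20 arrays and mean log2 signal of 9 gene lists (vertical axis), each as the deviation from its own mean over the 20 arrays (colour, log2 units), by group and replicate (horizontal axis). B replicates 3 and 4 and AB replicate 4 resemble SL for Ly6a, Cd34, Procr and Cd248, while DN is below the mean for all 5 members.

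The members varied together to different degrees. Over the 20 arrays, which share groups and the arrays that stand apart, Pearson r with Ly6a was 0.866 for Cd34, 0.855 for Cd248, 0.822 for Procr and 0.506 for Thy1. After each array's deviation from its group mean was taken, r with Ly6a was 0.918 for Cd34, 0.897 for Cd248 and 0.802 for Procr but -0.045 for Thy1. Thy1 thus shared the differences between groups, with r = 0.849 to Cd248 and 0.784 to Procr over all arrays, and little of the spread within groups, with 0.099 and 0.181. Cd34 and Cd248 correlated at 0.825 over all arrays and 0.899 within groups. These are descriptions over 20 arrays, among them the B and AB replicates that stand apart.

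**Figure D4:**
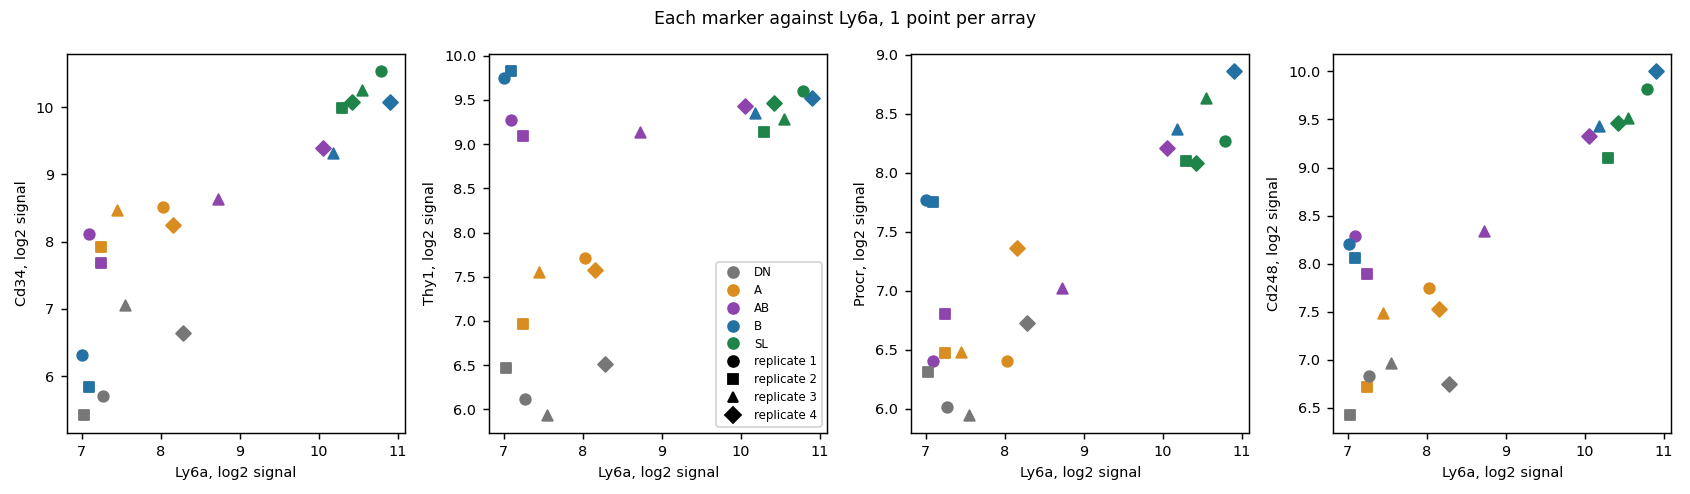
Log2 signal of Cd34, Thy1, Procr and Cd248 (vertical axes) against that of Ly6a (horizontal axis), with 1 point per array, coloured by group and shaped by replicate. B replicate 3, with Ly6a of 10.18, lies just below the SL arrays and B replicate 4, with 10.90, above them, while B replicates 1 and 2 have low Ly6a beside Thy1 of 9.75 and 9.82.

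The genes most like each member were found by Pearson r over the 20 arrays among the 9129 genes. Nearest to the mean of the 5 members, each centred and scaled, were Cd55, a complement inhibitor on the cell surface (r = 0.987), Pi16, a peptidase inhibitor of adventitial fibroblasts (0.976), Tnxb, the matrix protein tenascin-X (0.973), and Mfap5, a microfibril protein (0.968). Fbln2, the matrix protein fibulin-2 (0.953), and Kcp, a secreted protein of the chordin family (0.950), followed. The Cd55 signal was 8.68 ± 0.17 for SL, 7.82 ± 0.95 for B, 7.46 ± 0.62 for AB, 6.48 ± 0.19 for A and 5.72 ± 0.45 for DN. Pi16 went from 6.04 ± 0.36 in DN to 8.99 ± 0.25 in SL. Of these 6 genes, 4 were also among the nearest 6 by Spearman's rank correlation, and 3 (Cd55, Pi16 and Mfap5) by deviations from group means.

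Singly, Ly6a was most like Celf2, an RNA-binding splicing regulator (r = 0.944), Tek, the angiopoietin receptor (0.938), Emilin2, an elastic fibre protein (0.911), and Pi16 (0.908). Tek was 7.48 ± 0.66 in SL and 4.64 ± 0.31 in DN, and in B it ran from 4.31 to 7.50. Cd34 was most like Myoc, which encodes myocilin (0.967), Gsn, the actin-severing protein gelsolin (0.966), Abca8a, an ABC transporter (0.955), and Carhsp1 (0.955). Thy1 was most like Ctsk, the collagen-degrading protease cathepsin K (0.987), Flot2, the membrane scaffold flotillin-2 (0.979), Cygb, cytoglobin (0.978), and Lgals1, galectin-1 (0.976). Ctsk showed the 3 levels of Thy1, with 9.79 ± 0.10 in DN, 10.23 ± 0.16 in A and 11.00 ± 0.08, 11.10 ± 0.14 and 11.02 ± 0.02 in AB, B and SL. Procr was most like Diaph1, an actin-nucleating formin (0.937), Anxa3, an annexin (0.929), Emilin2 (0.914) and Cd55 (0.898). Cd248 was most like Cd55 (0.978), Pi16 (0.965), Tnxb (0.958) and Mfap5 (0.957). The measure matters here, since 2 of the 4 genes were kept for Ly6a, Cd34, Procr and Cd248 and 0 of 4 for Thy1 when Spearman's rank correlation was used. By deviations from group means 2 of 4 were kept for Ly6a and for Cd34 and 0 of 4 for Thy1, Procr and Cd248.

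Counts over the gene lists stand against the shares of all genes called higher and lower, which were 23.9% and 21.3% in SL minus DN, 2.89% and 0.635% in A minus DN, 17.7% and 15.2% in AB minus A and 15.1% and 14.6% in B minus A. Other surface markers of mesenchymal progenitors, 16 measured of 20, moved in both directions. In SL minus DN, 10 were higher and 5 lower with a median of 0.64, against a median of 0.01 over all genes. Cd55 (2.97 ± 0.35), Anpep, the aminopeptidase CD13 (2.73 ± 0.13), Pdpn, podoplanin (2.14 ± 0.18), and Entpd1, the ectonucleotidase CD39 (1.72 ± 0.27), had the largest called differences. In A minus DN 3 were higher and 0 lower, namely Lepr, the leptin receptor of marrow stroma (1.28 ± 0.32), Vcam1, a leukocyte adhesion molecule (0.93 ± 0.25), and Pdpn (0.65 ± 0.18). Between AB and A 8 were higher and 5 lower, with Vcam1 at 2.43 ± 0.25, Lepr at 2.26 ± 0.32, Anpep at 1.97 ± 0.13 and Itga6, the integrin alpha-6 chain, at -1.62 ± 0.18. In B minus A 7 were higher and 4 lower, led by Anpep (1.85 ± 0.13), Entpd1 (1.77 ± 0.27), Cd55 (1.34 ± 0.35) and Itga6 (-1.26 ± 0.18). Lepr was not among the genes called between B and A.

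Adventitial fibroblast progenitor genes, 17 measured of 18, include some of the genes named as most like the members (Cd55, Pi16, Tnxb, Mfap5 and Gsn) and were chosen with earlier results of these data known. In SL minus DN 12 were higher and 1 lower, with a median of 2.38. The largest were Clec3b, tetranectin (4.33 ± 0.61), Mfap5 (3.83 ± 0.41), Scara5, a ferritin receptor (3.62 ± 0.52), and Tnxb (3.41 ± 0.35). In A minus DN 4 were higher and 0 lower, namely Scara5 (1.97 ± 0.52), Dpt, the matrix protein dermatopontin (1.03 ± 0.20), Igfbp6, an IGF-binding protein (0.87 ± 0.19), and Gsn (0.60 ± 0.16). In AB minus A 7 were higher and 3 lower, and in B minus A 8 were higher and 3 lower. Pi16 was higher by 1.42 ± 0.48 in AB and 1.52 ± 0.48 in B, Mfap5 by 1.35 ± 0.41 and 1.29 ± 0.41, and Igfbp6 by 1.16 ± 0.19 and 1.15 ± 0.19. Pcolce2, an enhancer of procollagen cleavage, went the other way at -2.33 ± 0.45 and -1.81 ± 0.45. The list mean of AB and B moved with replicates 3 and 4, as given above for B and as 8.97, 8.79, 9.28 and 9.83 in AB.

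Of 22 genes of the Ly6 family and related GPI-anchored proteins, 6 were measured, and in SL minus DN 3 were higher and 0 lower with a median of 0.61. These were Ly6e (1.22 ± 0.15), Lynx1, a modulator of acetylcholine receptors (1.14 ± 0.12), and Ly6k (1.00 ± 0.22). In AB minus A, Lynx1 (0.52 ± 0.12) and Ly6e (0.47 ± 0.15) were higher and Plaur, the urokinase receptor, lower (-0.51 ± 0.18), and in B minus A Ly6e alone was called (0.53 ± 0.15). In A minus DN 0 of 6 were called. Whether the Ly6a probe set also reads close relatives of the Ly6 family was not tested.

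Family members and binding partners of the members outside the Ly6 family numbered 13 measured of 22. In SL minus DN 6 were higher and 2 lower, with a median of 0.43. Thbd, thrombomodulin, which turns thrombin to the activation of protein C, was higher by 1.94 ± 0.16, and F2r, the thrombin receptor PAR1 that protein C bound to the Procr product can cleave, by 1.92 ± 0.17. Adgre5, the adhesion receptor CD97, which in human binds both CD55 and THY1, was higher by 1.35 ± 0.13, and F3, the tissue factor that starts coagulation, was lower (-1.05 ± 0.19). Against A, F2r was higher by 1.38 ± 0.17 in AB and 1.61 ± 0.17 in B and Thbd by 1.38 ± 0.16 and 1.02 ± 0.16. F3 was at -1.34 ± 0.19 and -1.44 ± 0.19, and Sdc4, the heparan sulfate proteoglycan syndecan-4, which binds THY1 together with integrins, at -1.04 ± 0.10 and -0.91 ± 0.10. In AB minus A and in B minus A 6 of the 13 were higher and 3 lower, where 15.2% and 14.6% of all genes were lower. In A minus DN only Adgre5 was called (0.57 ± 0.13, adjusted p = 0.0160). Thbd and F2r were thus called higher in AB than in A, where Procr (0.43, adjusted p = 0.337) did not pass the test.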

How the data were processed

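Biotin-labelled total RNA went onto expression arrays, per the labels. For 24539 probe sets the authors deposited log2 signal, from 3.28 to 13.63, with array medians of 6.39 to 6.46. For 12440 of them the authors also deposited linear intensity in a filtered table, and its log2 was within 0.0075 of the other. Comparison tables by the authors list log2 differences, p-values and q-values, per the file headers. How signals were normalized and filtered, and with which software, is not stated in any label or header used here.

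The log2 values of the filtered table were used. Of its probe sets 83 had no symbol, and the brightest stood for each of 2431 genes with several, beside 6698 genes with 1. In R 4.3.3, limma 3.58.1 fitted 1 mean per group over all 20 arrays (15 residual and 4.34 prior degrees of freedom, median residual SD 0.185), with 10 pairs of groups and 1 interaction. P-values were two-sided and adjusted by Benjamini-Hochberg over 9129 genes per contrast, with a threshold of 0.05, and the model was tested on simulated data. Across genes, r between arrays of 1 group was 0.951 to 0.983. Arrays of the same replicate number correlated in their residuals above 0.1 for all 4 numbers only in AB with A (0.185 to 0.398) and AB with B (0.17 to 0.422), and the labels do not say what a number marks. In the other pairs r ran from -0.0531 (A with DN) to 0.453 (B with DN), so this cut-off does not show that they were unpaired.

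The members, lists, alternatives and naming rule were chosen with earlier results of these data known. The rule named the 5 members, up to 4 called genes per list with the largest difference in SL minus DN, AB minus A, B minus A and A minus DN, the 4 genes nearest each member and the 6 nearest their mean. Alternatives were other normalization, filters, probe set choice, variance models, array weights, replicate block, other sets of samples and each array left out. Promoter windows are from RefSeq (GRCm38.p6).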

Additional observations from a re-analysis of the deposited data

Results flagged for a closer look

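For Procr, A replicate 4 (7.36) stood far above the other 3 A arrays (6.40 to 6.48). Its gap to them was 0.915 of the group's range, which is past Dixon's critical value for 4 samples. Of 25 groups checked this was the 1 past that value, and chance gives about 1 in 20.

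For Thy1, the difference that goes with PDGFRa differed between cells without and with PDGFRb, with DN read as negative for PDGFRb from its code alone. A minus DN was 1.19 and AB minus B was -0.38, and the limma test of the difference between them gave -1.57 ± 0.23 (adjusted p = 0.00191). All 4 A arrays lay above all 4 DN arrays, while AB and B arrays overlapped.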

How the results depend on the processing

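Over 32 alternative settings, 1618 of 1760 member values kept their direction and side of the threshold, 62 lost a call, 52 gained one and 2 reversed. The other 26 changed sign but were called in neither fit. The reversals, both for Cd34, were changes of sign in which only a single fit was called. B minus A was -0.40 ± 0.67 over all arrays, not called, and 1.34 with replicates 3 and 4 of every group. B minus DN was 1.69 over all arrays and -0.12 ± 0.35 with B and AB from replicates 1 and 2, not called.

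Counts of members called moved as follows. With the replicate number as a block, 2 members were called in the interaction (1 without), 2 in A minus DN (1), 1 in AB minus B (0), 4 in SL minus AB (1) and 2 in SL minus B (1). Residuals of arrays with the same number correlated above 0.1 for all 4 numbers in AB with A and AB with B. In these pairs the block changed the call of Procr in AB minus B (adjusted p = 0.0112) and of no other member. The arrays left out in the next 3 settings were chosen knowing their Ly6a, so those counts are descriptions. With B and AB from replicates 1 and 2 the counts were 2 in A minus DN, 1 in AB minus B, 4 in SL minus AB and 3 in SL minus B. With replicates 1 and 2 of every group they were 1 in AB minus A (2 over all arrays), 2 in AB minus B, 4 in SL minus AB and 3 in SL minus B. With replicates 3 and 4 they were 0 in the interaction, 5 in B minus A (3 over all arrays), 0 in SL minus AB and 0 in SL minus B. Array weights gave 4 in SL minus AB and 2 in SL minus B, and fits of the paired groups alone gave 2 in A minus DN, 3 in SL minus AB and 0 in SL minus B. Leaving out 1 array at a time gave 1 to 2 in the interaction, A minus DN and AB minus A, 0 to 1 in AB minus B, 0 to 4 in SL minus AB and 0 to 2 in SL minus B.

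Counts of genes called over the whole table also moved. The block gave 360 in the interaction (61 without), 546 in A minus DN (322) and 321 in AB minus B (139). Replicates 1 and 2 gave 148 in the interaction and 188 in A minus DN. Replicates 3 and 4 gave 1 in the interaction, 44 in A minus DN, 1291 in AB minus A (3004 over all arrays), 10 in AB minus B, 2645 in AB minus DN (4210), 1122 in B minus A (2714), 2291 in B minus DN (4172), 1273 in SL minus A (2976), 164 in SL minus AB (853), 221 in SL minus B (1138) and 2620 in SL minus DN (4122). Fits of the paired groups alone gave 167 in A minus DN and 70 in AB minus B, a mean signal of at least 7 gave 88 in AB minus B, and array weights gave 1309 in SL minus AB. Testing all 24539 probe sets, a choice made after seeing the data since only filtered probe sets carry names, gave 214 in AB minus B, 7270 in AB minus DN, 7017 in B minus DN and 6869 in SL minus DN. It replaced the planned test of all named probe sets, which was not run. Leaving out 1 array gave 24 to 152 in the interaction, 179 to 341 in A minus DN and 79 to 194 in AB minus B. Other than where fewer arrays or more probe sets entered a fit, the cause was not tested. No background values were available, so signal over background could not be judged.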
